A study of Arabidopsis thaliana with 3 samples.

Results

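The organ boundary genes of Arabidopsis were examined for binding by PISTILLATA (PI) and APETALA3 (AP3), a pair of MADS-domain transcription factors of class B whose joint action gives petals and stamens their identity. The 10 genes were chosen by locus, out of 27444 protein-coding genes in the RefSeq table: CUC1, CUC2, CUC3, LOF1, LOF2, BOP1, BOP2, LOB, JLO and PTL. Chromatin immunoprecipitation with an anti-GFP antibody, followed by sequencing, gave 1 library from PI-GFP plants and 1 from AP3-GFP plants. A negative control library came from plants without a tagged factor, and its own values were not analysed here. All 3 genotypes were in the Ler background and carried 35S:AP1-GR with ap1-1 and cal-1, an inducible system in which an AP1 fusion protein starts flowers in many meristems together. Plants of about 4 weeks, kept at 20 degrees Celsius, received 10 µM dexamethasone, and flowers of about stage 4 to 5 were taken 4 days later. The labels do not name the promoter of either GFP fusion. Because whole flowers were used, strong binding in few cells and weak binding in many cannot be told apart.

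Boundary genes are expressed in the narrow bands of slowly dividing cells that separate an organ from the meristem or from its neighbour, and their loss fuses organs or alters organ number. CUC1, CUC2 and CUC3 are NAC transcription factors at the head of this system, of which CUC1 and CUC2 are targets of the microRNA miR164. LOF1 and LOF2 are MYB factors (MYB117 and MYB105), BOP1 and BOP2 are BTB-ankyrin co-activators, LOB and JLO are LBD proteins, and PTL is a trihelix factor that limits growth between sepals and is needed for petal initiation.

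In the authors' gene tables, PI was listed at 8 of the 10 boundary genes, against 8.69% of all protein-coding genes. AP3 was listed at 7 of the 10, against 7.26%. The 7 AP3 genes were also PI genes, and 5.32% of protein-coding genes were listed for both. The 10 genes were chosen with earlier results of these data known, so these counts are not from a blind choice. CUC2 was listed for PI and not for AP3, and LOF2 and JLO were listed for neither. Each table gives the largest peak score in 5 windows of a gene: 3 consecutive windows of 1000 bp before its start, the gene itself, and 1000 bp after its end. The score is the authors' own value, which the file headers call Poisson, and it has no stated normalization for library size. Its size is therefore read within a library, by rank among 1852 PI peaks or 1524 AP3 peaks, and a rank is given as a top percentage, where a small value is a high score. Each factor had 1 library, so none of the values below has a replicate check and no test of a difference was possible. Positions are on the TAIR10 build.

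**Figure D1:**
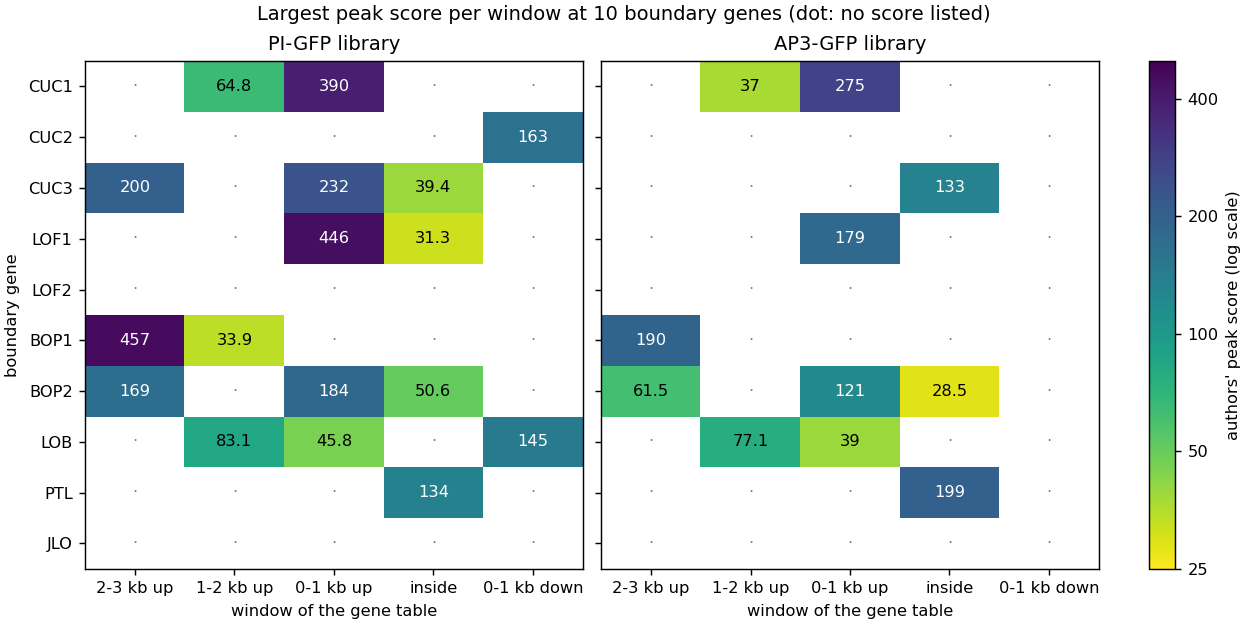
Largest peak score (authors' values, log color scale) in each of the 5 windows (columns) of the 10 boundary genes (rows), for the PI-GFP library on the left and the AP3-GFP library on the right. A dot marks a window with no listed score. LOF2 and JLO have no score, CUC2 has 1 PI score and no AP3 score, and PTL is the one gene whose only scored window lies inside the gene in both libraries.

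Among the NAC genes, CUC1 (AT3G15170) had the same layout in both libraries. Its main peak was listed 0 to 1000 bp upstream, with a score of 390.4 for PI (top 11.0%) and 275 for AP3 (top 9.25%). This AP3 score was the highest of the 10 genes in the AP3 table. The peak was broad, covering chromosome 3, 5108984 to 5110078 for PI (1095 bp) and 5109117 to 5110114 for AP3 (998 bp), against a median width of 335 bp over all PI peaks and 257 bp over all AP3 peaks. A weaker peak lay 1000 to 2000 bp upstream, at 5108398 to 5108749 for PI (64.8) and 5108543 to 5108676 for AP3 (37.0), with maxima 1 bp apart. Both CUC1 peaks were also listed for a neighbor, the main one for AT3G15180 and the weaker one for AT3G15160, so the tables alone do not tie them to CUC1.

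CUC2 (AT5G53950), which acts redundantly with CUC1, had no score in any upstream window. Its only listed peak was a PI peak 0 to 1000 bp downstream, at chromosome 5, 21900757 to 21901153, with a score of 163 (top 27.1%). The AP3 list held a peak over the same bases, at 21900750 to 21901155, with a score of 108 (top 27.6%). That AP3 peak was listed for the neighbor AT5G53940, for which the PI peak was listed too, and not for CUC2. The AP3 maximum lay at 21900951, which is 115 bp from the PI maximum at 21901066. CUC2 thus differed between the gene tables at a site where both libraries had a peak. Of 633 genes listed for PI and not for AP3 whose highest score occurs in only 1 peak on its chromosome, 6 (0.948%) had an AP3 peak over their highest PI peak. CUC2 is not among these 633, because 2 PI peaks on chromosome 5 have its score, and its peak was placed by its neighboring loci.

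CUC3 (AT1G76420), the CUC gene that miR164 does not target, had PI scores in 3 windows. They were 232 at 0 to 1000 bp upstream (top 18.8%), 200.2 at 2000 to 3000 bp upstream (top 21.9%) and 39.4 inside the gene (top 87.5%). The AP3 table gave CUC3 a score of 133 inside the gene (top 22.9%) and nothing upstream. These entries described in part the same site. The PI peak of 232 spanned chromosome 1, 28673180 to 28674356 (1177 bp), and the AP3 peak of 133 lay within it, at 28673692 to 28674154, with maxima 195 bp apart. Among 986 genes with overlapping highest peaks in both tables, 36 (3.65%) had them in different windows, as CUC3 did. A second AP3 peak, of 42.2 at 28672629 to 28672895, overlapped the PI peak of 39.4, and a small one of 30.8 at 28673253 to 28673314 lay under the broad PI peak. Neither appears in the AP3 table, which gives 1 value per window. The PI peak of 200.2, at 28675966 to 28676491, had no AP3 peak over it. Among the listed peaks of the 10 genes, it was the highest-scoring one seen in 1 library only.

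The MYB genes LOF1 and LOF2, close relatives that act together in separating lateral organs, were unlike each other. In LOF1 (AT1G26780), a peak in the window 0 to 1000 bp upstream covered chromosome 1, 9269629 to 9270281 for PI and 9269901 to 9270214 for AP3, with scores of 446 (top 9.23%) and 179 (top 15.7%). Both maxima fell on the same base, 9270066. PI also had a weak peak of 31.3 inside the gene (top 96.6%), with no AP3 peak over it. LOF2 (AT1G69560) had no score in any window of either table. The next locus, AT1G69570, was listed for PI, and the nearest AP3 gene, AT1G69587, stood 4 loci away in the RefSeq order.

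The strongest peaks near LOF1 were not listed for it. On its upstream side, 2860 bp from the PI maximum just described, PI had a peak of 1464 at 9266856 to 9267529, the 26th highest of the PI list. AP3 had a peak of 749 there, at 9266924 to 9267507, the 30th highest of the AP3 list, and the maxima lay 8 bp apart. Neither table lists these peaks for any gene. Among peaks with an unrepeated score, 11.0% in the PI list and 13.8% in the AP3 list had no gene. Farther upstream, 5645 bp from the LOF1 maximum for PI, stood a peak of 2607 for PI (rank 3) and 1417 for AP3 (rank 6), listed for AT1G26771 and AT1G26773. A smaller peak between them scored 152 for PI and 76.8 for AP3. In all, 6 PI peaks lay within 10000 bp of the highest PI peak of LOF1, a number reached by 1.15% of 1920 PI targets, and 4 AP3 peaks lay within that distance of its highest AP3 peak, reached by 7.84% of 1378 AP3 targets. The median was 1 in each library. The distance of 10000 bp was chosen after the values were seen, and neighboring targets can share peaks.

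**Figure D2:**
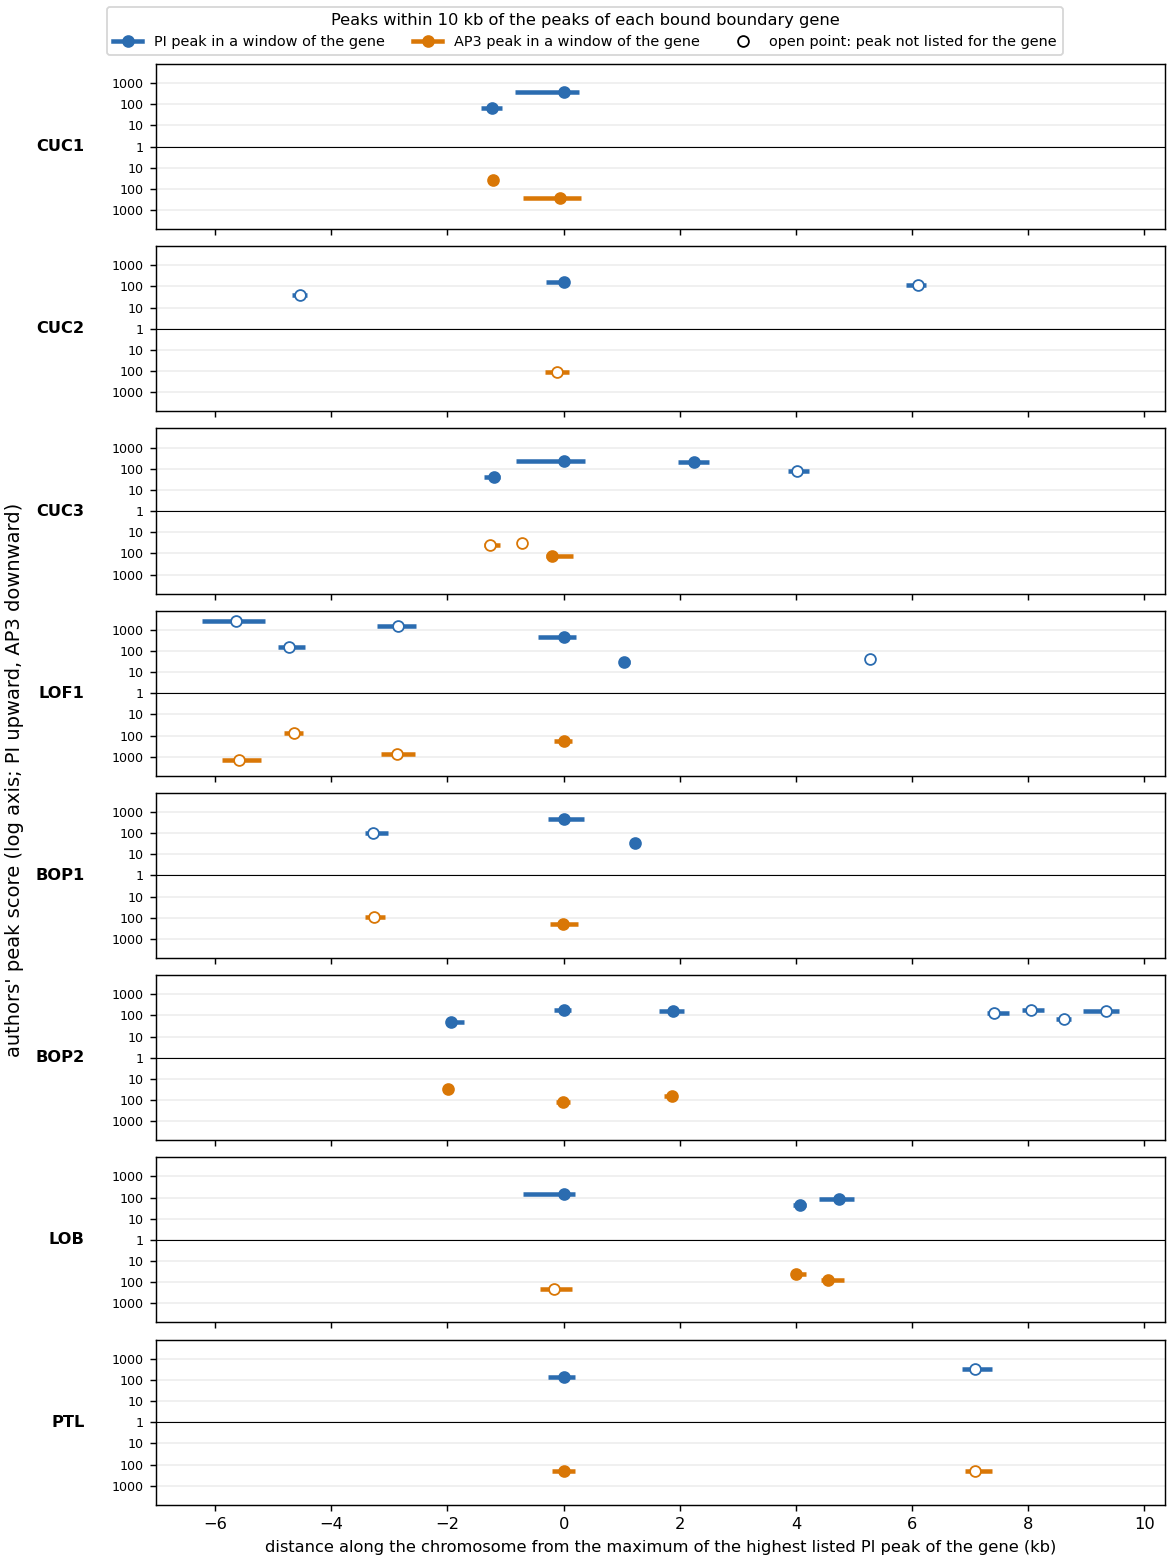
Peaks within 10000 bp of the listed peaks of the 8 bound boundary genes, drawn by distance in kb from the maximum of the highest PI peak listed for the gene. Each horizontal line spans a peak and the point marks its maximum, at the height of its score on a log axis that runs upward for PI and downward for AP3. Open points are peaks whose score the table does not give for that gene, such as the PI and AP3 peaks of 1464 and 749 near LOF1 and the AP3 peak of 202 at LOB.

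BOP1 and BOP2, redundant co-activators that pattern the proximal part of leaves and floral organs, had their highest peaks in different windows, while both also had a peak 2000 to 3000 bp upstream in each library. BOP1 (AT3G57130) held the highest score of the 10 genes in the PI table, 457 (top 9.07%). Its AP3 score was 190.1 (top 14.6%), and both scores were 2000 to 3000 bp upstream. The peaks covered chromosome 3, 21144631 to 21145246 for PI and 21144660 to 21145138 for AP3, with maxima 15 bp apart. A weak PI peak of 33.9 lay 1000 to 2000 bp upstream with no AP3 peak over it. Farther from the gene, 3278 bp beyond the main PI maximum, both libraries had a peak listed for no gene, of 105 for PI at 21141475 to 21141863 and 93.1 for AP3 at 21141480 to 21141818, with maxima 4 bp apart.

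BOP2 (AT2G41370) was scored in the same 3 windows by both factors. The peak 0 to 1000 bp upstream scored 184 for PI (chromosome 2, 17240857 to 17241152) and 121 for AP3 (17240891 to 17241142). The peak 2000 to 3000 bp upstream scored 169 for PI (17242673 to 17243102) and 61.5 for AP3 (17242756 to 17242961). Inside the gene the scores were 50.6 for PI and 28.5 for AP3. Maxima were 19, 20 and 47 bp apart at these sites. Neighboring maxima were spaced almost evenly, 1946 and 1885 bp apart for PI and 1974 and 1884 bp apart for AP3. The distal peak was in the top 26.1% of the PI list and the top 48.5% of the AP3 list, while the proximal peak stood in the top 23.8% and the top 24.8%. Still farther upstream, 7411 to 9341 bp from the proximal PI maximum, were 4 PI peaks of 132, 189, 69.0 and 159, the strongest and the last of which were listed for AT2G41380 and the others for no gene. The peak of 69.0 lay between those listed for AT2G41380, and the PI table gives only the largest score per window. Its absence from the table therefore does not place it outside the windows of that gene. None of the 4 had an AP3 peak over it. With them, 7 PI peaks lay within 10000 bp of the highest BOP2 peak, a number reached by 0.260% of PI targets. For AP3, 3 peaks lay within that distance of the highest AP3 peak of BOP2, reached by 17.9% of AP3 targets. BOP2 and LOF1 had the most PI peaks of the listed genes. The PI number was 4 at CUC3 (reached by 8.65%), 3 at CUC2, BOP1 and LOB (20.4%) and 2 at CUC1 and PTL (41.5%). The AP3 number was 3 at CUC3 and LOB (17.9%) and 2 at CUC1, BOP1 and PTL (41.6%).

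Of the LBD genes, LOB (AT5G63090), the founder of that family, was bound on both sides. Upstream, PI scored 83.1 at 1000 to 2000 bp and 45.8 at 0 to 1000 bp, and AP3 scored 77.1 and 39.02 in the same windows. Downstream, PI had its highest LOB peak, of 145 at chromosome 5, 25306986 to 25307875 (top 31.2%), while the AP3 table listed nothing. The AP3 list did hold a peak there, of 202 at 25307287 to 25307832 (top 13.5%), with its maximum 167 bp from that of PI. It was listed for no gene. It scored higher than both AP3 peaks listed for LOB, and the AP3 entries of LOB leave it out. Its maximum, at 25307519, lay farther from the upstream LOB peaks than the PI maximum, at 25307686. Whether it fell beyond the downstream window was not tested. JLO (AT4G00220), which acts in boundary and root development, had no score in either table. The nearest listed loci stood 13 loci away on one side for both factors, and on the other side 19 loci away for PI and 16 for AP3.

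PTL (AT5G03680) had 1 peak, inside the gene, at chromosome 5, 958819 to 959290 for PI and 958881 to 959290 for AP3, with both maxima at 959086. Its score was 134 for PI (top 33.6%) and 199 for AP3 (top 13.8%). Of the listed genes among the 10, PTL had the lowest highest score in the PI table and the second highest in the AP3 table. In the ratio of PI to AP3 score over all 1025 shared peaks, PTL had rank 75 from the low end and the downstream peak of LOB rank 92. At the other extreme of the 10 genes, the distal BOP2 peak had rank 203 from the high end.

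Taking the windows together, 17 PI peaks were listed for the 8 genes and 11 AP3 peaks for the 7 genes, at most 1 per window. Smaller peaks in a window are not counted. For PI, 6 of 8 genes were scored in at least 2 windows, against 12.3% of all PI targets, and 3 (CUC3, BOP2 and LOB) in at least 3, against 1.89%. For AP3, 3 of 7 genes were scored in at least 2 windows, against 11.1% of AP3 targets, and BOP2 alone in at least 3, against 1.77%. In 4 of the 8 PI genes (CUC1, CUC3, LOF1 and BOP2) the window 0 to 1000 bp upstream held the highest score, against 30.8% of PI targets. For AP3 this was so for 3 of 7 (CUC1, LOF1 and BOP2), against 27.5%. The median highest score of the listed genes was 208 for PI, against 87.7 over all PI targets, and 179 for AP3, against 58.2. The listed peaks ranked no higher than 168 in the PI list (BOP1) and 141 in the AP3 list (CUC1). Most peaks belonged to 1 gene only: 14 of 17 PI peaks and 9 of 11 AP3 peaks were listed for no other gene, against 43.8% of PI peaks and 39.6% of AP3 peaks over all peaks with an unrepeated score that were listed for at least 1 gene.

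Of the 17 PI peaks, 14 overlapped an AP3 peak by at least 1 bp, against 55.3% of all PI peaks. All 11 AP3 peaks listed for these genes overlapped a PI peak, against 69.5% of all AP3 peaks. With a reciprocal overlap of 50%, the count was 9 of 17 for PI, against 42.4% of all PI peaks, and 6 of 11 for AP3, against 51.6% of all AP3 peaks. The 3 PI peaks without an AP3 peak were the distal peak of CUC3 and the weak peaks of LOF1 and BOP1. At 3 of the 14 shared sites (CUC2 downstream, CUC3 inside and LOB downstream) the overlapping AP3 peak was not in the AP3 table for that gene. Both lists were made against 1 control library, and its part in the overlap was not tested.

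**Figure D3:**
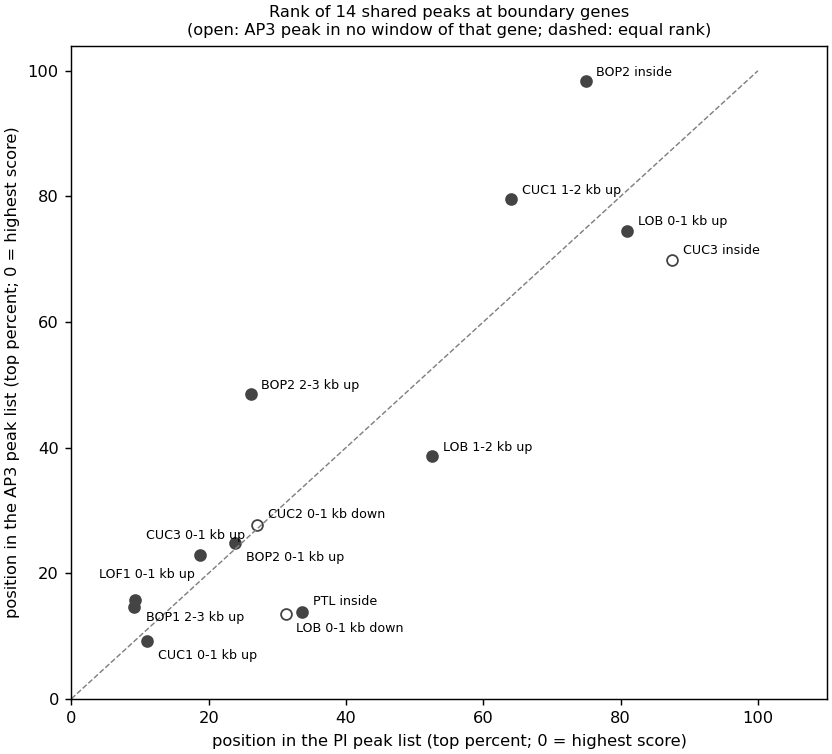
Position of the 14 shared boundary gene peaks in the PI list (horizontal axis) and in the AP3 list (vertical axis), as a top percentage in which 0 is the highest score. The dashed line marks equal rank, and open points are AP3 peaks that the AP3 table does not give for the gene. PTL and the downstream LOB peak lie below the line, nearer the top of the AP3 list, and the distal BOP2 peak lies above it.

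The maxima at the 14 shared sites lay a median of 53.5 bp apart, against 23 bp over all 1025 shared peaks. They were within 50 bp of each other at 7 of 14 sites, against 67.3% of all shared peaks. LOF1 and PTL had coincident maxima, and CUC1 (weaker peak), BOP1 and BOP2 had maxima at most 47 bp apart. The distances of 115 to 195 bp were at CUC2, CUC3 (main peak) and LOB (the downstream and the distal upstream peak). At CUC2, CUC3 and the downstream side of LOB the tables also disagreed on the window.

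**Figure D4:**
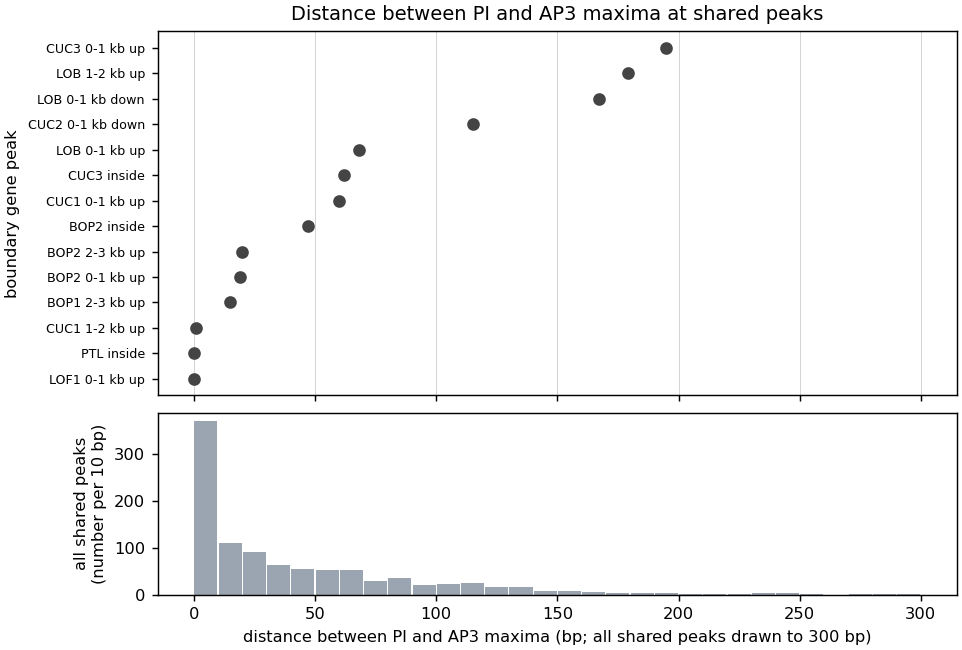
Distance in bp between the PI and AP3 maxima at each of the 14 shared boundary gene peaks (upper panel, 1 point per peak) and over all 1025 shared peaks (lower panel, number of peaks per 10 bp, drawn to 300 bp). The points for CUC2, CUC3 (0 to 1000 bp upstream) and 2 of the 3 LOB peaks lie beyond 100 bp.

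A further list of 34 genes that act with or beside these in boundaries, chosen with earlier results of these data known, was read in the same way. Of its 31 protein-coding genes, 20 were listed for PI, against 8.69% of all protein-coding genes, and 16 for AP3, against 7.26%. All 16 were PI genes too, against 5.32% listed for both. None of the 3 miR164 loci was listed, while 24 of 326 microRNA loci in the RefSeq table were listed for PI and 14 for AP3. Of the 5 TCP genes on the list, which repress CUC genes, TCP24 was listed for PI (77.3, top 56.3%), and TCP2, TCP3, TCP4 and TCP10 were listed for neither factor. LSH3 (also OBO1), an ALOG gene expressed in organ boundaries, had the highest PI score, 1118 at 1000 to 2000 bp upstream (top 2.05%), and 314 for AP3 (top 8.14%), with maxima 1 bp apart at chromosome 2, 13276635 and 13276634. Like BOP2 it was scored in 3 windows by both factors. ATH1, a homeodomain gene of the basal stem boundary, scored 1085 for PI (top 2.16%) and 198 for AP3 (top 14.0%). In both libraries the ATH1 peak was also listed for AT4G32990. KNAT6, a KNOX gene expressed at boundaries, scored 391 for PI and 179 for AP3 at 2000 to 3000 bp upstream, and 374 and 268 inside the gene. The inside peak was also listed for AT1G23360 in both libraries.

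RAX1, a MYB gene of axillary meristems, scored 396 for PI (top 10.6%) and 247 for AP3 (top 10.3%) inside the gene at chromosome 5, 7697441 to 7698052 for PI. Its relatives RAX2 and RAX3 were listed for neither factor, so RAX1 stood apart from them as LOF1 did from LOF2. DRNL, an AP2/ERF gene of organ founder cells, scored 434 for PI and 217 for AP3 at 2000 to 3000 bp upstream, at chromosome 1, 8717664 to 8718068 for PI, a peak also listed for AT1G24600. AS1, which represses KNOX genes in organs, scored 568 for PI and 352 for AP3. The highest AP3 score of the list was that of BZR1, a transcription factor of brassinosteroid signaling, at 382 (top 6.04%), with 375 for PI (top 11.5%). This BZR1 peak was also listed for AT1G75060 and AT1G75070 in both libraries. There were 4 genes listed for PI alone, and in each of these no AP3 peak overlapped a listed PI peak: SUP, which separates stamens from carpels (201 and 58.5), HAN, a GATA factor of floral boundaries (64.3 and 49.1), TCP24 and DRN (42.4). They differed in this from CUC2, where an AP3 peak was present.

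Likeness to other genes was measured as the Euclidean distance of log10(score + 1) over 10 values, 5 windows in each of 2 libraries. A window with no score was taken as 0. The nearest gene to PTL was PABN1 (AT5G51120), at a distance of 0.078, with scores inside the gene of 135 for PI and 167 for AP3. The nearest to BOP1 was CRC (AT1G69180), a YABBY gene of carpels, at 0.107, with PI scores of 502 and 36.6 and an AP3 score of 153 in the windows in which BOP1 was scored. AT5G57720 was nearest to CUC1 (0.243) and AT5G13100 to LOF1 (0.407). The genes nearest to BOP2, CUC3 and LOB stood farther off: TEM1, GRF3 and DTX35, at 1.60, 1.91 and 2.20. TEM1 was scored in the same windows as BOP2, but with 2314.5 for PI and 1100 for AP3 at 0 to 1000 bp upstream. GRF3 had an AP3 score of 62.7 at 2000 to 3000 bp upstream, where CUC3 had none. DTX35 had no downstream PI score, where LOB had one.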

How the data were processed

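Per the submitters' processing notes, the processing named BWA 0.6.1, SAMtools and the TAIR10 build. The caller of the peaks, the threshold applied and the source of gene models were not stated there, and depth is unknown. The authors deposited, per library, a peak list with the extent and maximum of every peak and its score (called Poisson in the file headers), and a gene table with the largest score in each of 5 windows.

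The members and lists were chosen with earlier results of these data known. All 10 members, 6 further boundary genes with the highest scores (the larger of the PI and AP3 scores) and those listed for 1 factor only were named by rule. The miR164 loci, TCP2, TCP3, TCP4, TCP10, BZR1, RAX2 and RAX3 were named after their values were seen, and the rest of that list is only counted. A table score was tied to the peak with that score on the chromosome. Where several peaks had it (5 of 17 PI and 4 of 11 AP3 member peaks), the peak within 50000 bp of peaks of loci at most 10 places away in the RefSeq order (assembly TAIR10.1, names and order only) was taken. RefSeq held 2490 of 2544 PI targets, 2101 of 2146 AP3 targets and all 10 members. Table entries followed peak maxima: peaks over 1000 bp never entered more than 1 window of a gene (69 PI and 19 AP3 entries), and over 298 genes with peaks in several windows, maxima were out of window order in 0 genes and midpoints in 2. Overlap meant at least 1 bp. The overlap and likeness steps recovered planted answers on simulated data. Python 3.11.15, pandas 2.3.3 and numpy 2.4.6 were used.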

Additional observations from a re-analysis of the deposited data

How the results depend on the processing

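The counts of boundary genes listed for PI (8), AP3 (7) and both (7) were unchanged without scores below the median of each list and with lists of equal length. With the 0 to 1000 bp upstream and inside windows they were 6, 6 and 6, and with upstream windows only 6, 5 and 5. Taking AP3 peaks by overlap with a PI peak of the gene, an alternative added after the data were seen, gave 8 for AP3 and 8 for both. Overlap depended on its definition. With a reciprocal overlap of 50%, 9 of 17 PI peaks and 6 of 11 AP3 peaks were shared. Among peaks at or above the median score of each list, 9 of 10 PI peaks and 7 of 8 AP3 peaks were shared, fewer peaks entering by construction. With maxima at most 100 bp apart, 10 of 17 and 9 of 11 were shared. Apart from the reciprocal overlap, shares over all genes or all peaks were not computed for these settings. The counts therefore do not show whether boundary genes differ from other genes under them. Motif searches and placement by gene coordinates were not run. No paired analysis was possible because each group has 1 library, and no replicate could be left out. Depth is unknown, so a missing peak may have fallen under the authors' threshold.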
